A study of Mus musculus with 8 samples.

Results

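Potassium channel genes were described across 8 RNA sequencing libraries of mouse prefrontal cortex. The members were all gene symbols made of Kcn, further letters and a closing number that had at least 80 counts summed over the 8 libraries. Of 23393 gene symbols, 92 matched this pattern and 81 reached the minimum. The 81 members fall by symbol into 37 voltage-gated pore subunits, 12 auxiliary subunits, 8 calcium- or sodium-activated pore subunits, 13 inward rectifiers and 11 two-pore channels. The calcium- or sodium-activated class holds the symbols Kcnma, Kcnn, Kcnt and Kcnu, and its name need not hold for Kcnu1. The 11 symbols below the minimum were Kcne1, Kcnk16, Kcnj1, Kcnk15, Kcna7, Kcne2, Kcnv2, Kcna10, Kcnmb3, Kcnk18 and Kcnj15. Kcnj15 with 77 counts and Kcnk18 with 68 lay just outside, and Kcne3 with 95 and Kcnk7 with 114 lay just inside.

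All 8 libraries came from bulk lysate of prefrontal cortex of C57BL6/J mice, aged 6 to 8 weeks per the series' design text, and all mice had been injected with AAV9, an adeno-associated virus. A pair of libraries titled for Adnp (shAdnp here) was compared with its own pair of controls given AAV9 with green fluorescent protein (Adnp-set GFP). A pair titled for Pogz (shPogz) was compared with a separate pair of GFP controls (Pogz-set GFP). The treatment label of both hairpin groups names ASH1L, whereas the titles and the design text name Adnp and Pogz, so the groups were taken from the titles. The promoter that drives the hairpins, the cells that took up virus and the number of mice behind a library were not given in the sources used here, and the design text counts 3 knockdown mice where 2 libraries per group were analysed. The series title asks whether ADNP and POGZ act through a convergent mechanism.

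Potassium channels let potassium leave the cell and so set the resting potential, repolarise the action potential and limit repetitive firing. Voltage-gated channels are built from several pore subunits, which auxiliary subunits modify, and electrically silent subunits of the same superfamily join them without forming channels alone. Inward rectifiers and two-pore channels act near rest, in neurons and also in glia, microglia and vessel wall cells, while calcium- and sodium-activated channels couple firing to ion entry.

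Adnp itself was measured at 137 and 111 CPM (reads scaled to the total and composition of the library) in the Adnp-set GFP libraries and at 87.2 and 118 CPM in shAdnp, so the groups overlapped (log2 fold change -0.27 ± 0.19 SE). Pogz was measured at 54.4 and 53.1 CPM in the Pogz-set GFP libraries and at 49.0 and 37.3 CPM in shPogz, without overlap (log2 fold change -0.32 ± 0.16 SE). Neither passed edgeR's quasi-likelihood test with Benjamini-Hochberg adjustment, with adjusted p = 0.77 for Adnp in shAdnp and 0.67 for Pogz in shPogz, so "shAdnp" and "shPogz" below mean the libraries so labelled. Library totals ran from 27501722 to 69002749 counts. In shAdnp replicate 1 the ribosomal RNA precursor Rn45s made up 7.62% of these, against 0.134% to 0.740% in the other 7 libraries. The labels call the groups biological duplicates, and p-values measure the spread between these libraries only. Neuronal markers were present in every library: the summed level of 8 general neuronal markers ranged from 5971 to 8665 CPM, and that of 8 excitatory neuron markers from 2105 to 3817 CPM.

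Promoter sequences are shown for 4 members whose values are described below: Kcnj4, Kcnj3 and Kcnh7, lower in both shPogz libraries than in both of their controls, and Kcnj8, higher in both shAdnp libraries than in both of theirs. Each line gives the 250 bases directly before the annotated start, 5′ to 3′ on the gene's strand, from RefSeq on GRCm38.p6, with the GC box GGGCGG (or CCGCCC, its other strand) in capitals. The windows lie at chr15:79505242-79505491 (minus strand) for Kcnj4, chr2:55435720-55435969 (plus strand) for Kcnj3, chr2:63184288-63184537 (minus strand) for Kcnh7 and chr6:142571615-142571864 (minus strand) for Kcnj8.
Kcnj4: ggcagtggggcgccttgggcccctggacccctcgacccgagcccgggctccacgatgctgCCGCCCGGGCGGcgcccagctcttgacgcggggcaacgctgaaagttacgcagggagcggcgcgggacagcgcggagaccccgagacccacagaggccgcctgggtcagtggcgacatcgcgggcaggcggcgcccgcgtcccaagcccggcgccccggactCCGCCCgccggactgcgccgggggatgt
Kcnj3: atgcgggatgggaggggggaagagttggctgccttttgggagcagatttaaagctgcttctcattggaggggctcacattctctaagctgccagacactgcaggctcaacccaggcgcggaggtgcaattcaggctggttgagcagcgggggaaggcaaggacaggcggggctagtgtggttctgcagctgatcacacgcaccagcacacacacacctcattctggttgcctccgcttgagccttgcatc
Kcnh7: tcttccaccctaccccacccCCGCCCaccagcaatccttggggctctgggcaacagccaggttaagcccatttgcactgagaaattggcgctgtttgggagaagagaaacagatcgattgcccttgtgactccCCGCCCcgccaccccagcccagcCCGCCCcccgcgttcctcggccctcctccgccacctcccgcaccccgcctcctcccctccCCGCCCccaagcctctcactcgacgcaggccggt
Kcnj8: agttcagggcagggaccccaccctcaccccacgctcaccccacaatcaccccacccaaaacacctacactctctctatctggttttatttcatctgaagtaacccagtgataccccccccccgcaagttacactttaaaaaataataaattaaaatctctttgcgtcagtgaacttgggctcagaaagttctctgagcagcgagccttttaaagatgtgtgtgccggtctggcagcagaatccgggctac
The Kcnj4 stretch holds 3 GC boxes and 35 CG dinucleotides, the Kcnh7 stretch 4 GC boxes and 16 CG dinucleotides, and the Kcnj3 and Kcnj8 stretches 0 GC boxes with 7 and 6 CG dinucleotides.

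A RefSeq window of 300 bases (250 before and 50 after the start) was found for 58 of the 81 members, 82 windows in all. Members' windows were richer in GC than the windows of all genes, with a median of 59.67% against 52.67%, and held a median of 10 CG dinucleotides against 7. A GC box stood in 51.2% of the members' windows and in 35.7% of the 32841 windows of all genes. The core of the interferon-stimulated response element was searched on both strands as GAAA, any 2 bases and GAAA again. It stood in 6 of the members' windows (7.32%) and in 3.44% of all windows. A gene can have several windows, and by gene 4 of 58 members and 1079 of all 27018 genes held it. These members were Kcnab1, Kcnc2, Kcnd2 and Kcnj16. Motif hits are matches of letters and not measured binding sites.

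Levels spanned a wide range. Per kilobase of exon, a scale on which genes can be compared, the highest mean over the 8 libraries was that of Kcnab2, the cytosolic beta subunit of Shaker-type channels, at 95.5 CPM per kilobase. Kcnj4, a classical inward rectifier of forebrain neurons, followed at 66.6 and Kcna1, an axonal Shaker-type channel, at 57.9 CPM per kilobase. The next in order were Kcnip3, a calcium-binding partner of A-type channels, at 51.3, the silent subunit Kcnf1 at 44.0, the two-pore channel Kcnk1 at 40.2 and the silent subunit Kcnv1 at 39.3. The G-protein-gated inward rectifier Kcnj9 stood at 38.2 and the ether-à-go-go-like Kcnh3 at 35.5 CPM per kilobase. The 10 highest members came from each role class except the calcium- or sodium-activated channels, and the highest of that class was the sodium-activated Kcnt2 at 19.6 CPM per kilobase. At the other end stood Kcnmb1, the beta subunit of large-conductance channels known from smooth muscle, at 0.0899, Kcnj5 at 0.117, Kcnh8 at 0.138 and Kcne3 at 0.148 CPM per kilobase. Not scaled to length, the members' means ran from 0.252 to 412 CPM with a median of 25.9 CPM, against 16.7 CPM over the 17415 genes tested.

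**Figure D1:**
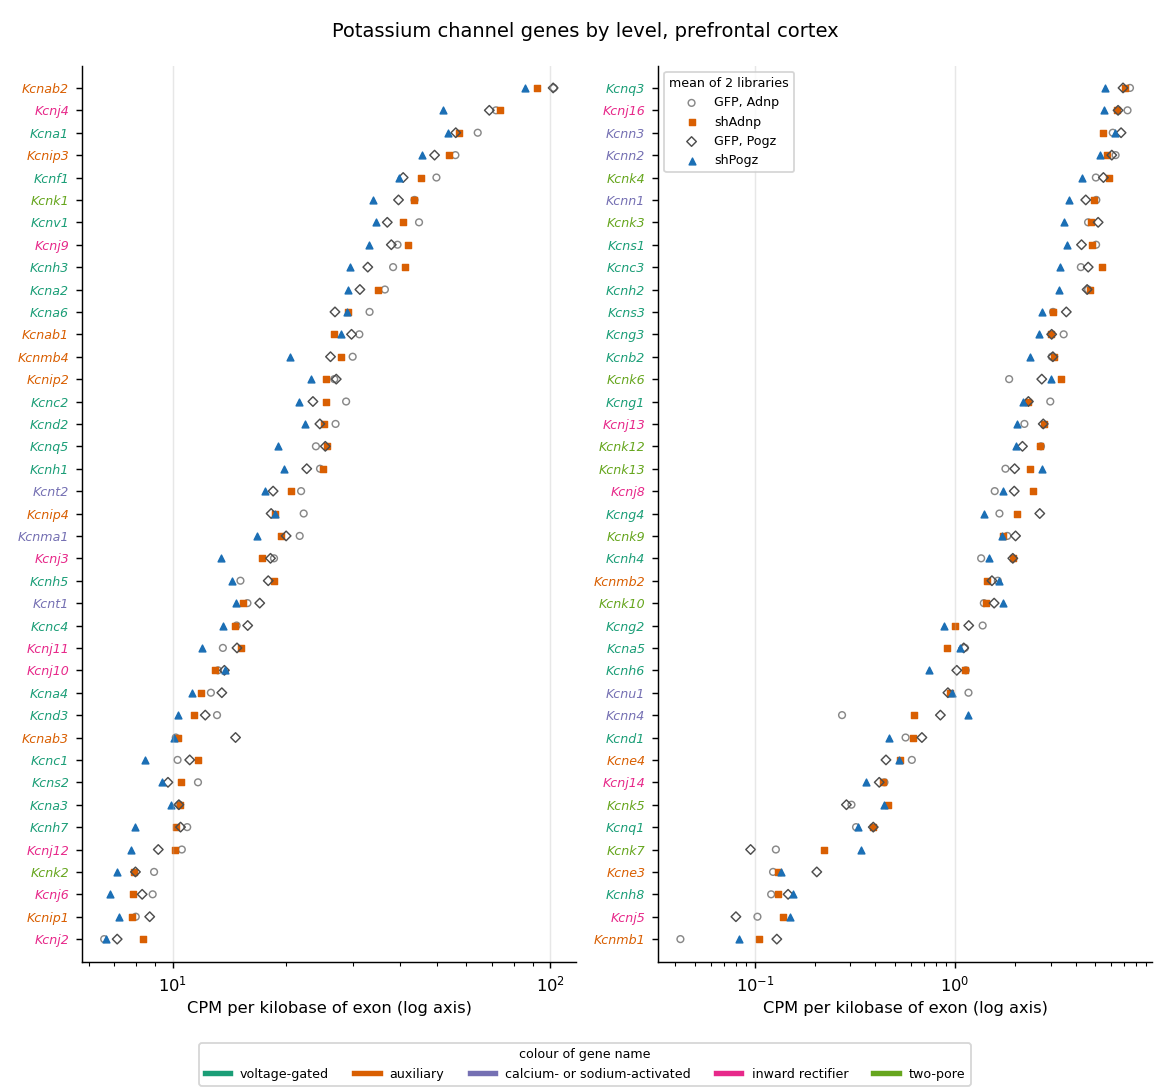
Level of 78 of the 81 members in the 4 groups, as CPM per kilobase of exon on a log axis; each symbol is the mean of 2 libraries, and the colour of the gene name gives the role class. Kcnab2 leads at 95.5 and Kcnmb1 closes at 0.0899 CPM per kilobase (means over the 8 libraries), and the shPogz symbol lies at the left of the row for most of the higher members.

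Between libraries, the members' summed level was 6319 and 5825 CPM in the Adnp-set GFP libraries, 5431 and 6247 CPM in shAdnp, 5797 and 5528 CPM in the Pogz-set GFP libraries and 5334 and 4527 CPM in shPogz. The sum was lowest in shPogz replicate 2, and both shPogz libraries lay below both of their controls, whereas the shAdnp libraries lay on either side of the lower of theirs. Scaled sums are not equal between libraries, and the sum over all genes tested was also lowest in shPogz replicate 2, at 920984 CPM. It was 972177 CPM in shPogz replicate 1 and 972578 and 980616 CPM in their controls. Of the 81 members, 59 (72.8%) had their lowest value of the Pogz set in shPogz replicate 2, as did 36.9% of all genes tested. In 50 members (61.7%) it was the lowest of all 8 libraries, against 25.5% of all genes tested. Set against the mean of its own controls, the median member differed by -0.35 on the log2 scale in shPogz replicate 2, by -0.070 in shPogz replicate 1, by -0.13 in shAdnp replicate 1 and by 0.086 in shAdnp replicate 2. The medians of all genes tested were -0.023, -0.0047, -0.017 and 0.0067 in the same order. The shAdnp libraries therefore differed from each other in opposite directions: shAdnp replicate 1 was the lowest library of its set in 43 members (53.1%, all genes tested 27.1%), and shAdnp replicate 2 was the highest in 37 (45.7%, all genes tested 29.4%).

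**Figure D2:**
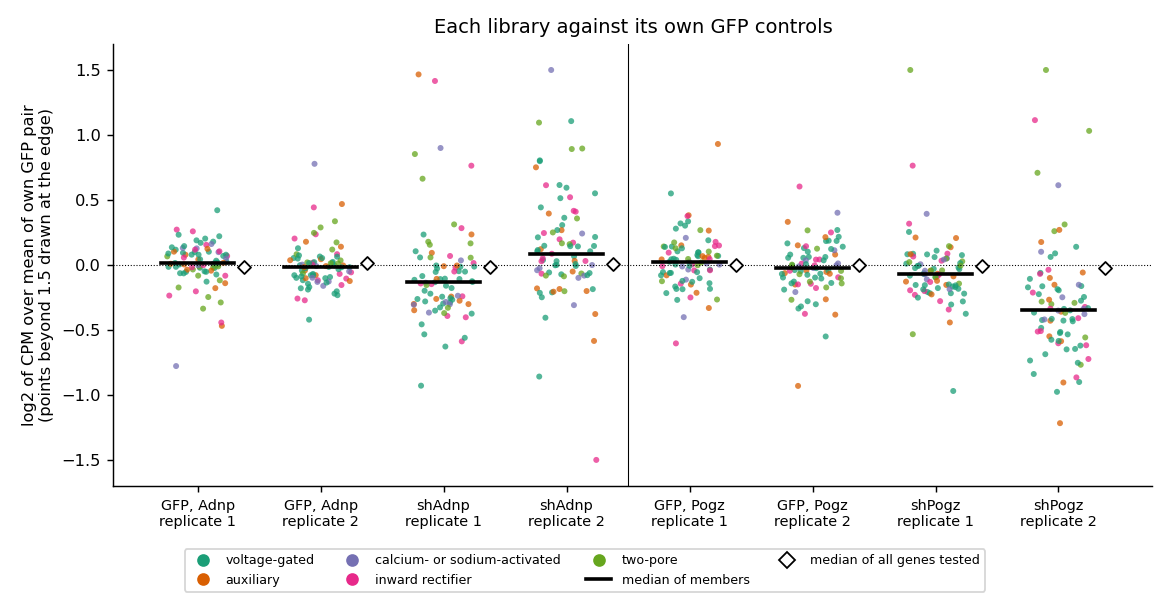
Each point is 1 of the 81 members in 1 library, as the log2 ratio of its level to the mean of that set's GFP pair (log2 CPM with a prior count of 2, so a GFP library is set against a mean that includes it); bars are the members' medians and diamonds the medians of all 17415 genes tested. The bar lies at -0.35 in shPogz replicate 2 and at -0.070 in shPogz replicate 1, at -0.13 and 0.086 in the shAdnp libraries, and near 0 in the GFP libraries.

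Marker levels of cell types differed between the same libraries, in both sets. The marker sums are to be read beside the sum over all genes tested, itself lowest in shPogz replicate 2. In shPogz replicate 2 the summed level of 8 excitatory neuron markers was 2105 CPM, against 2885 to 3817 CPM in the other 7 libraries, and that of 8 general neuronal markers was 5971 CPM, against 7111 to 8665 CPM. The 10 interferon response genes summed to 2033 CPM in that library, 654 CPM in shPogz replicate 1 and 208 and 244 CPM in their controls. The 10 microglia markers summed to 2020 and 1210 CPM in shPogz replicates 2 and 1 and to 1000 and 1099 CPM in their controls. The 8 oligodendrocyte markers summed to 4418 CPM in shPogz replicate 2, the highest of the 8 libraries, and 7 striatal neuron markers to 209 CPM there, against 115 to 142 CPM in the others. The 10 astrocyte markers summed to 4017 CPM in shPogz replicate 2, the lowest of the 8 libraries, against 4992 to 5773 CPM in the other 7. In the Adnp set the oligodendrocyte markers summed to 4180 CPM in shAdnp replicate 1, in which more members were lowest, and to 2026 CPM in shAdnp replicate 2, in which more were highest, with 2579 and 3853 CPM in their controls. The excitatory neuron markers summed to 3027 and 3817 CPM in shAdnp replicates 1 and 2 and to 3706 and 3328 CPM in their controls. Of these 8 markers, 4 were lowest of the set in shAdnp replicate 1 and 3 were highest in shAdnp replicate 2. The general neuronal markers summed to 7877 and 7753 CPM in shAdnp replicates 1 and 2 and to 8665 and 8568 CPM in their controls. Their sum was thus lowest of the set in shAdnp replicate 2, in which more members were highest. In each of these lists 0 of the markers found were at 0. Their part in the potassium channel values was not tested, and in bulk tissue fewer cells of a type and less RNA per cell cannot be told apart.

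The comparison of shPogz with its GFP controls asks which potassium channel genes differed with the Pogz hairpin. Most members had lower values in shPogz, by modest amounts, and 0 of 81 passed the test after adjustment. The log2 fold change was below 0 in 67 members (82.7%), where 53.6% of all genes tested were below 0. Its median was -0.22, with quartiles of -0.36 and -0.093, against a median of -0.022 over all genes tested. In 37 members both shPogz libraries lay below both controls (45.7%, background 21.3%), and in 5 both lay above (6.17%, background 19.0%). By edgeR's quasi-likelihood test with Benjamini-Hochberg adjustment 0 members were called, as were 0% of all genes tested. At an unadjusted p under 0.05, 8 members were lower (9.88%, background 2.65%) and 1 was higher (1.23%, background 4.05%). DESeq2 called 0 members after adjustment (background 0.58%) and 8 members at an unadjusted p under 0.05 in either direction (background 7.56%). These counts turned on shPogz replicate 2: without it the median was -0.072, 55 members were below 0 (52.8% of all genes tested) and 1 was lower at an unadjusted p under 0.05, as were 81 of the 17413 genes then tested. Without shPogz replicate 1 the median was -0.31, 68 members were below 0 (49.3% of all genes tested) and 18 were lower at that threshold, as were 1250 of 17415 genes. Without Pogz-set GFP replicate 1 the median was -0.14, 64 members were below 0 (48.5% of all genes tested) and 2 were lower at that threshold, as were 90 of 17413 genes. The number of genes at that threshold thus moved with the left-out library among all genes as well as among the members.

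By role, values below 0 were more frequent than among all genes tested (53.6%) in 4 classes. In the two-pore channels their share (54.5%) was near that background. Among voltage-gated subunits 35 of 37 were below 0 (median log2 fold change -0.24), among inward rectifiers 11 of 13 (-0.23), among auxiliary subunits 9 of 12 (-0.24), among calcium- or sodium-activated channels 6 of 8 (-0.15) and among two-pore channels 6 of 11 (-0.11). Of the 8 Kcnh genes, the ether-à-go-go family, 7 were below 0, and the exception Kcnh8 stood at 0.10. Both voltage-gated exceptions, Kcnh8 and Kcna6 (0.11), had standard errors larger than their values (0.43 and 0.15). So did some voltage-gated members below 0, among them Kcna1 (-0.069 ± 0.12), Kcnf1 (-0.037 ± 0.12) and Kcnv1 (-0.098 ± 0.12). The two-pore class ran from -0.57 in Kcnk3 to 1.74 in Kcnk7, which had only 3 to 22 counts per library of the Pogz set. The inward rectifiers ran from -0.44 to 0.80. In 3 of the 11 two-pore members both shPogz libraries lay above both controls, as in 19.0% of all genes tested.

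Sums over the members of 2 subfamilies, chosen after their values were seen, are given as a description. The Kcnh genes summed to 583 and 561 CPM in the Adnp-set GFP libraries, 524 and 662 CPM in shAdnp, 519 and 570 CPM in the Pogz-set GFP libraries and 509 and 392 CPM in shPogz. The highest sum of the 8 libraries was in shAdnp replicate 2 and the lowest in shPogz replicate 2. The Shaker-type Kcna genes summed to 1070 and 922 CPM in the Adnp-set GFP libraries, 890 and 950 CPM in shAdnp, 883 and 849 CPM in the Pogz-set GFP libraries and 849 and 810 CPM in shPogz, with the highest sum in GFP replicate 1 of the Adnp set.

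Among the inward rectifiers, Kcnj4 (chr15:79483714-79505241, GRCm38) was measured at 147 and 149 CPM in the Pogz-set GFP libraries, 127 and 97.7 CPM in shPogz, 146 and 163 CPM in the Adnp-set GFP libraries and 152 and 164 CPM in shAdnp. Both shPogz values lay below the other 6, and the lower one was that of replicate 2. In shPogz the log2 fold change was -0.40 ± 0.13 SE (edgeR's quasi-likelihood test, Benjamini-Hochberg adjusted p = 0.667), and in shAdnp it was 0.031 ± 0.13. Kcnj3 (chr2:55435970-55598145), a subunit of the G-protein-gated channels that slow neurons under inhibitory transmitters, was measured at 94.9 and 94.5 CPM in the Pogz-set GFP libraries and at 82.7 and 57.3 CPM in shPogz. Its values in the Adnp set were 101 and 92.1 CPM in GFP and 87.3 and 92.3 CPM in shAdnp, so shPogz held both of the lowest values of 8. Kcnj3 had a log2 fold change of -0.44 ± 0.16 in shPogz (edgeR adjusted p = 0.667) and -0.11 ± 0.16 in shAdnp. An exon of Kcnj3 overlaps the gene Gm26794, and reads of overlapping genes may be shared. The other G-protein-gated subunits of cortex gave log2 fold changes in shPogz of -0.28 ± 0.18 for Kcnj6 and -0.19 ± 0.12 for Kcnj9, which were -0.086 and -0.072 without shPogz replicate 2. Kcnj5, a further member of that family, had between 0 and 74 counts per library, with 74 in shAdnp replicate 1 and 0 in shAdnp replicate 2, so that its log2 fold change in shPogz of 0.80 carried a standard error of 1.39.

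Kcnj11 (chr7:46093953-46100764), the pore of the neuronal ATP-sensitive channel, was measured at 51.2 and 41.9 CPM in the Pogz-set GFP libraries and at 40.3 and 34.8 CPM in shPogz, and at 44.4 and 41.0 CPM in the Adnp-set GFP libraries and 44.7 and 50.6 CPM in shAdnp. Both shPogz values lay below their controls and both shAdnp values above theirs. Its log2 fold change of -0.31 ± 0.13 in shPogz (edgeR adjusted p = 0.667) was -0.14 without Pogz-set GFP replicate 1, and its value of 0.16 ± 0.13 in shAdnp was 0.077 without shAdnp replicate 2. Abcc8, the regulatory subunit that assembles with Kcnj11, was measured at 39.9 and 35.3 CPM in the Pogz-set GFP libraries and at 30.5 and 24.5 CPM in shPogz, again without overlap. In shPogz Abcc8 had a log2 fold change of -0.45 ± 0.19 (edgeR adjusted p = 0.667).

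Kcnk3 (chr5:30588170-30625271), an acid-sensitive leak channel, had the smallest p among members in shPogz. Its level was 23.4 and 16.1 CPM in the Pogz-set GFP libraries, 13.4 and 13.2 CPM in shPogz, 17.3 and 17.8 CPM in the Adnp-set GFP libraries and 19.9 and 16.6 CPM in shAdnp. The shPogz replicates nearly coincided and were the lowest of the 8, while the higher of their controls stood apart from the lower. Its log2 fold change in shPogz was -0.57 ± 0.18 (edgeR adjusted p = 0.667), and -0.26 without Pogz-set GFP replicate 1.

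Of the voltage-gated members, Kcnh7 (chr2:62693414-63184287), an ether-à-go-go-related channel of neurons, was measured at 145 and 162 CPM in the Pogz-set GFP libraries, 135 and 98.0 CPM in shPogz, 168 and 152 CPM in the Adnp-set GFP libraries and 135 and 164 CPM in shAdnp. Here shPogz replicate 1 equalled shAdnp replicate 1 to 3 digits, and shPogz replicate 2 alone stood apart from the rest. Its log2 fold change was -0.40 ± 0.16 in shPogz (edgeR adjusted p = 0.667), and an exon of Kcnh7 overlaps one of Gca. Kcnh2 (chr5:24319589-24351604), of the same subfamily, was measured at 19.3 and 23.1 CPM in the Pogz-set GFP libraries and at 18.1 and 12.7 CPM in shPogz, a log2 fold change of -0.46 ± 0.20 (edgeR adjusted p = 0.667). The shPogz values lay below both controls, with replicate 1 close to the lower of them. Kcng4 (chr8:119623854-119635680), a silent subunit, was measured at 13.8 and 6.40 CPM in the Pogz-set GFP libraries and at 4.77 and 5.82 CPM in shPogz, while its Adnp-set values ran from 5.96 to 9.58 CPM. Its log2 fold change of -0.91 ± 0.37 (edgeR adjusted p = 0.667) was -0.25 without Pogz-set GFP replicate 1. Kcnn1 (chr8:70842049-70863258), a small-conductance calcium-activated channel, was measured at 20.4 and 20.8 CPM in the Pogz-set GFP libraries and at 18.1 and 15.8 CPM in shPogz (log2 fold change -0.28 ± 0.12, edgeR adjusted p = 0.667). Its controls agreed closely, and both shPogz values lay below all 6 of the others. Without shPogz replicate 2, the log2 fold changes in shPogz were -0.23 for Kcnj4, -0.19 for Kcnj3, -0.19 for Kcnh7 and -0.23 for Kcnh2, each smaller by over 1.5 times.

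The member above its controls at an unadjusted p under 0.05 in shPogz was Kcnk7 (chr19:5704367-5707109), a two-pore subunit not known to form channels alone. It rested on 3 and 12 counts in the Pogz-set GFP libraries (0.106 and 0.171 CPM) and 22 and 18 counts in shPogz (0.515 and 0.471 CPM). The shPogz values were the highest of the 8, although 1 shAdnp library stood at 0.432 CPM. The log2 fold change was 1.74 ± 0.67 (edgeR adjusted p = 0.667). Kcnk13 (chr12:99964499-100062682), the background potassium channel known from microglia, was measured at 6.61 and 5.73 CPM in the Pogz-set GFP libraries, 6.81 and 10.1 CPM in shPogz, 4.45 and 6.65 CPM in the Adnp-set GFP libraries and 8.64 and 6.08 CPM in shAdnp. Its highest values were in shPogz replicate 2 and shAdnp replicate 1, the libraries in which the microglia markers also summed highest (2020 and 1926 CPM), and groups overlapped in the Adnp set. The other libraries did not all keep this order. The markers summed to 1258 CPM in shAdnp replicate 2, with Kcnk13 at 6.08 CPM, and to 762 CPM in Adnp-set GFP replicate 2, with Kcnk13 at 6.65 CPM. The part of microglia in the Kcnk13 values was not tested. Kcnk13 had log2 fold changes of 0.46 ± 0.28 in shPogz (edgeR adjusted p = 0.68) and 0.41 ± 0.27 in shAdnp (edgeR adjusted p = 0.761), each 0.15 without the library with its highest value. The leak channels Kcnk5 and Kcnk10 gave 0.63 ± 0.46 and 0.16 ± 0.18 in shPogz, and 0.029 and -0.0097 without shPogz replicate 2.

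**Figure D3:**
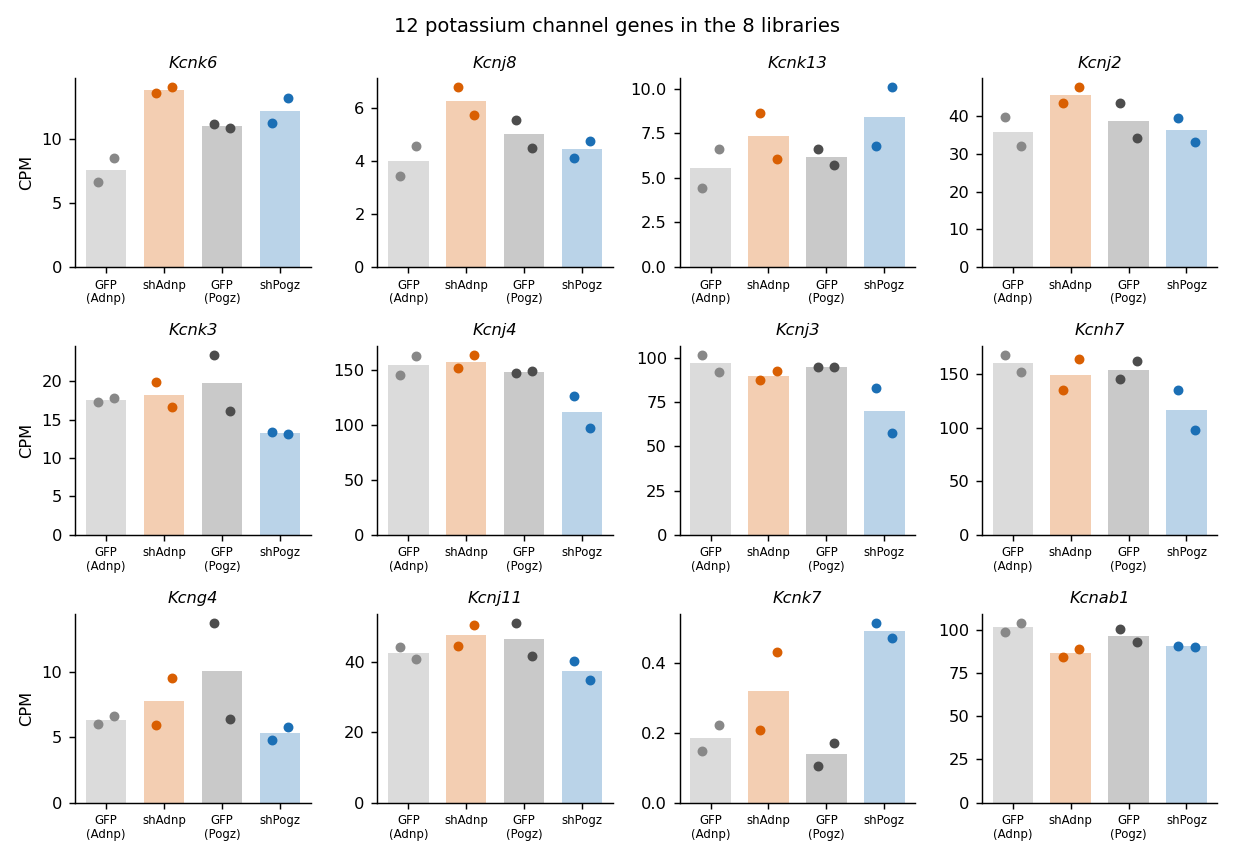
Level in CPM of 12 named members; points are the 2 libraries of a group and bars their mean, with GFP (Adnp) and GFP (Pogz) the controls of each set. The shPogz points lie below both controls for Kcnk3, Kcnj4, Kcnj3, Kcnh7, Kcng4, Kcnj11 and Kcnab1 and above them for Kcnk6, Kcnk13 and Kcnk7, and the shAdnp points of Kcnk6 at 13.7 and 14.1 CPM lie above all GFP points.

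For the Adnp hairpin the same question was asked with its own GFP pair. Here the members lay on both sides of 0, and 0 of 81 passed the test after adjustment, as did 0% of all genes tested by edgeR's quasi-likelihood test with Benjamini-Hochberg adjustment. The log2 fold change was below 0 in 47 members, or 58.0%, against 52.3% of all genes tested, with a median of -0.031 against -0.012. Both shAdnp libraries lay above both controls in 8 members (9.88%, background 20.4%) and below both in 10 (12.3%, background 21.0%), so non-overlapping groups were a smaller share of the members than of all genes tested. At an unadjusted p under 0.05, 2 members were higher (2.47%, background 6.67%) and 1 was lower (1.23%, background 1.69%). DESeq2 called 1 member after adjustment (background 2.39%), Kcnk6, and 4 at an unadjusted p under 0.05 (background 8.67%). Leaving out shAdnp replicate 1 gave a median of 0.10 with 28 members below 0 (34.6%, all genes tested 47.9%). Without shAdnp replicate 2 the median was -0.13 with 58 members below 0 (71.6%, all genes tested 52.2%).

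Kcnk6 (chr7:29221926-29232515), a two-pore channel also known from immune and endothelial cells, was measured at 6.69 and 8.52 CPM in the Adnp-set GFP libraries and at 13.7 and 14.1 CPM in shAdnp. In the Pogz set it was measured at 11.2 and 10.9 CPM in GFP and at 11.3 and 13.3 CPM in shPogz. The shAdnp values were the highest of the 8 and the Adnp-set GFP values the lowest, with the Pogz set between them. The log2 fold change was 0.87 ± 0.16 SE in shAdnp (edgeR's quasi-likelihood test, Benjamini-Hochberg adjusted p = 0.295), with 0.72 to 1.05 when each library of the comparison was left out in turn. DESeq2 gave 0.87 with an adjusted p of 0.00167. In shPogz the log2 fold change was 0.15 ± 0.16, and 0.028 without shPogz replicate 2. The Pogz-set GFP controls themselves lay above the Adnp-set GFP controls by 0.54 ± 0.16 (edgeR adjusted p = 0.672), a comparison that shares the Adnp-set GFP libraries. The microglia markers summed to 537 and 762 CPM in those controls, to 1926 and 1258 CPM in shAdnp and to 1000 and 1099 CPM in the Pogz-set GFP libraries. In shPogz they summed to 1210 and 2020 CPM. Single libraries did not all keep this order. Kcnk6 was higher in shAdnp replicate 2 than in shAdnp replicate 1 and in shPogz replicate 2, which both had higher marker sums. The 8 endothelial markers summed to 274 and 276 CPM in the Adnp-set GFP libraries and to 263 and 323 CPM in shAdnp. The part of either cell type in the Kcnk6 values was not tested.

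Kcnj8 (chr6:142564837-142571614), the pore of the ATP-sensitive channel of pericytes and vascular smooth muscle, was measured at 3.45 and 4.58 CPM in the Adnp-set GFP libraries, 6.78 and 5.72 CPM in shAdnp, 5.55 and 4.51 CPM in the Pogz-set GFP libraries and 4.12 and 4.77 CPM in shPogz. Both shAdnp values were the highest of the 8. Its log2 fold change was 0.64 ± 0.23 in shAdnp (edgeR adjusted p = 0.435) and -0.17 ± 0.23 in shPogz. Abcc9, its regulatory partner in the same channel, was measured at 13.8 and 12.7 CPM in the Adnp-set GFP libraries and at 16.6 and 17.9 CPM in shAdnp, above the other 6 libraries in the latter case. Abcc9 had a log2 fold change of 0.38 ± 0.13 (edgeR adjusted p = 0.405). The 8 mural cell markers, defining genes of the same vessel wall cells, summed to 202 and 219 CPM in the Adnp-set GFP libraries, 246 and 262 CPM in shAdnp, 234 and 249 CPM in the Pogz-set GFP libraries and 223 and 202 CPM in shPogz, with 0 of 8 at 0. Their part in the values of Kcnj8 and Abcc9 was not tested.

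Further members above their controls in both shAdnp libraries were Kcnj2, the strong inward rectifier, Kcnn4, the intermediate-conductance calcium-activated channel of blood and immune cells, and Kcnmb1. Kcnj2 was measured at 39.7 and 32.0 CPM in GFP and at 43.4 and 47.6 CPM in shAdnp (log2 fold change 0.34 ± 0.16, edgeR adjusted p = 0.61), with 0.20 without Adnp-set GFP replicate 2. Kcnn4 was measured at 0.262 and 0.844 CPM in the Adnp-set GFP libraries, 0.921 and 1.60 CPM in shAdnp, 1.24 and 2.19 CPM in the Pogz-set GFP libraries and 2.18 and 2.54 CPM in shPogz. It was thus lowest in the Adnp-set controls, and its log2 fold changes were 1.18 ± 0.55 in shAdnp and 0.44 ± 0.52 in shPogz. Leaving out 1 library gave 0.59 to 2.26 in shAdnp, without Adnp-set GFP replicates 1 and 2 in turn, and 0.13 to 0.97 in shPogz, without Pogz-set GFP replicates 1 and 2 in turn. Kcnmb1 had 8 to 36 counts per library, and its log2 fold changes were 1.30 ± 0.62 in shAdnp and -0.60 ± 0.61 in shPogz, the latter -0.13 without shPogz replicate 2. The log2 fold change of Kcnh5 in shAdnp was 0.29 ± 0.19, and it was -0.0059 without shAdnp replicate 2.

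Below its controls, Kcnab1 (chr3:65109384-65378223), a beta subunit that speeds the inactivation of Shaker-type channels, was measured at 98.7 and 104 CPM in the Adnp-set GFP libraries and at 84.5 and 89.1 CPM in shAdnp. In the Pogz set it was measured at 100 and 93.0 CPM in GFP and at 90.8 and 90.1 CPM in shPogz. Both hairpin groups lay below their own controls, and the gap was larger in the Adnp set. The log2 fold changes of Kcnab1 were -0.22 ± 0.10 in shAdnp (edgeR adjusted p = 0.581) and -0.095 ± 0.097 in shPogz (-0.020 without Pogz-set GFP replicate 1), and exons of Kcnab1 overlap A330015K06Rik. The other members with the smallest p below 0 in shAdnp had log2 fold changes from -0.45 in Kcng2, a silent subunit, to -0.15 in Kcns2, another, and Kcnip4, a calcium-binding partner of A-type channels, stood at -0.25 ± 0.13. Between these lay Kcng1 at -0.37 ± 0.19, Kcnu1 at -0.30 ± 0.21, the mechanically gated leak channel Kcnk2 at -0.18 ± 0.13 and Kcna1 at -0.16 ± 0.12. Without shAdnp replicate 1 the values of Kcng2 and Kcng1 were -0.073 and -0.21, and without Adnp-set GFP replicate 1 that of Kcna1 was -0.024.

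Whether both responses differed was tested directly, as the shPogz response minus the shAdnp response. By edgeR's quasi-likelihood test with Benjamini-Hochberg adjustment 0 of 81 members were called (all genes tested 0%), and DESeq2 called 0 members (background 0.0115%), with 7 at an unadjusted p under 0.05 (background 3.28%). At an unadjusted p under 0.05, 8 members were more negative in shPogz (9.88%, background 2.41%) and 0 were more positive (background 1.10%). The difference was below 0 in 58 members, or 71.6%, against 53.1% of all genes tested, with a median of -0.17. Among these 8 were Kcnk6 (difference -0.72 ± 0.23), Kcnj8 (-0.81 ± 0.32), Kcnj11 (-0.47 ± 0.19), Kcnk3 (-0.62 ± 0.25), Kcnj4 (-0.44 ± 0.19), Kcng4 (-1.21 ± 0.51) and Kcnh5 (-0.61 ± 0.26), each with edgeR adjusted p = 0.978. Of the members above 0, Kcnip4 had the smallest p, with a difference of 0.28 ± 0.18. Without Pogz-set GFP replicate 1 the difference was -0.29 for Kcnj11, -0.31 for Kcnk3, -0.54 for Kcng4 and 0.17 for Kcnip4. It was -0.26 for Kcnj4 without shPogz replicate 2 and -0.28 for Kcnh5 without shAdnp replicate 2. The median difference was 0.0045 without shAdnp replicate 2, -0.036 without shPogz replicate 2, and -0.31 without shAdnp replicate 1.

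**Figure D4:**
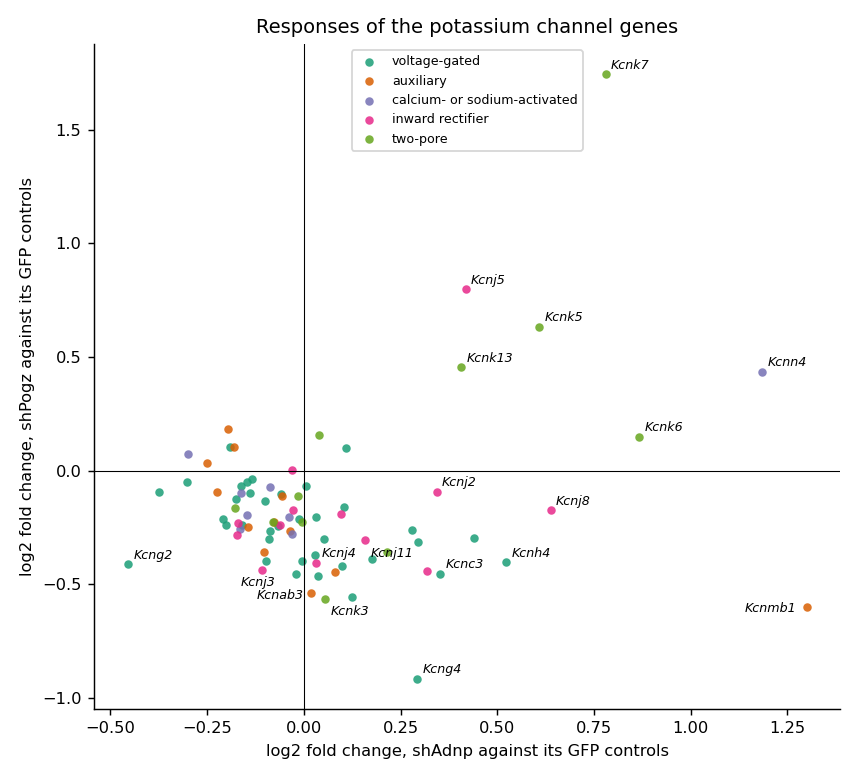
Log2 fold change of each of the 81 members in shPogz (vertical) against that in shAdnp (horizontal), each against its own 2 GFP libraries, coloured by role class. Most points lie below the horizontal line at 0 (67 of 81) and on both sides of the vertical line; 41 are below 0 on both axes, 26 are above 0 in shAdnp and below 0 in shPogz, 8 are above 0 on both and 6 the reverse.

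The average effect over both sets, from a model with a term for set, gave 0 calls after adjustment by edgeR's test (all genes tested 0%) and 1 by DESeq2 (background 4.08%), again Kcnk6, with 6 at an unadjusted p under 0.05 by DESeq2 (background 12.9%). At an unadjusted p under 0.05, 3 of 81 members were higher (background 8.84%) and 2 were lower (background 3.62%), both smaller shares than of all genes tested. Those above 0 were the two-pore channels Kcnk6 (0.51 ± 0.16), Kcnk13 (0.43 ± 0.19) and Kcnk7 (1.24 ± 0.46), and those below 0 were Kcnab1 (-0.16 ± 0.068) and Kcnj3 (-0.27 ± 0.12, and -0.14 without shPogz replicate 2). The log2 fold change of Kcnk6 was 0.87 in shAdnp and 0.15 in shPogz, and Kcnk7 had only 3 to 24 counts per library. The median over members was -0.12, with 67 members below 0 (background 55.3%).

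The control pairs of both sets, which received GFP virus, were also compared. Between the Pogz-set and the Adnp-set GFP libraries 0 members were called by edgeR's test after adjustment (background 0.00574%) and 0 by DESeq2 (background 0.419%), which had 6 at an unadjusted p under 0.05 (background 7.61%). At an unadjusted p under 0.05, 3 members were higher in the Pogz-set controls (3.70%, background 4.65%) and 5 were lower (6.17%, background 2.70%). The median was -0.059, and 48 members were below 0 (59.3%, background 48.2%), but without Adnp-set GFP replicate 1 the median was 0.048. The groups did not overlap in 27 members, 10 above (background 21.2%) and 17 below (background 22.3%). The higher members were Kcnk6, Kcnn4 (1.65 ± 0.55) and Kcnmb1 (1.58 ± 0.63). The lower ones were Kcnt2 (-0.25 ± 0.10), Kcns2 (-0.26 ± 0.11), Kcnf1 (-0.29 ± 0.12), Kcnv1 (-0.28 ± 0.12) and Kcnip4 (-0.28 ± 0.13). The value of Kcnn4 was 1.06 without Adnp-set GFP replicate 1, and that of Kcnip4 was -0.14 without Pogz-set GFP replicate 1. Kcnk6, Kcnn4 and Kcnmb1 also had log2 fold changes above 0 in shAdnp (0.87, 1.18 and 1.30), a comparison that shares the same low Adnp-set GFP libraries.

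Across the 8 libraries 55 of the 81 members had a Pearson correlation above 0.5 with the mean of all members' standardised log2 levels, each member being part of that mean. Such correlations were not counted over all genes, so this number does not set the members apart from other genes. Among the members Kcnb2, a delayed rectifier, had the highest at 0.98, and Kcnq5, an M-current subunit, stood at 0.95. In 13 members the correlation was below 0, with the lowest in the two-pore channels Kcnk13 (-0.81) and Kcnk10 (-0.76). The 5 genes outside the list with the most similar pattern were Ildr2 (0.995), Gsk3a and Mprip (0.986 each), Brsk1 (0.985) and Slc24a3 (0.984). These are descriptions over 8 libraries, and the members' mean was lowest in shPogz replicate 2, at -1.09 standard deviations, against -0.22 to 0.57 in the other 7.

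Genes that work with potassium channels, and genes of other channels, were set beside the members. Of 25 partner genes (auxiliary, clustering and trafficking proteins) 24 were tested, and Lrrc52 with 2 counts was not. In shPogz 20 of 24 were below 0 (median log2 fold change -0.20, background 53.6% below 0) and 2 were lower at an unadjusted p under 0.05 (background 2.65%), Abcc8 and Dpp6. Dpp6, which brings A-type channels to the membrane, was measured at 251 and 241 CPM in the Pogz-set GFP libraries and at 221 and 165 CPM in shPogz (-0.35 ± 0.15, edgeR adjusted p = 0.667), with -0.15 without shPogz replicate 2. In shAdnp 19 of 24 were below 0 (median -0.11, background 52.3% below 0), 0 were lower (background 1.69%) and 1, Abcc9, was higher (background 6.67%) at that threshold. Among 43 sodium, calcium and HCN channel genes with at least 80 counts, 38 were below 0 in shPogz (median -0.17) with 3 lower at that threshold, and 29 in shAdnp (median -0.047) with 3 lower and 1 higher, to be read against the same shares of all genes tested. In 28 of these 43 genes (65.1%) shPogz replicate 2 was the lowest of the 8 libraries, beside the 61.7% among the potassium channel members and 25.5% of all genes tested. No difference between the lists was tested.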

How the data were processed

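Total RNA of prefrontal cortex was sequenced after ribosomal RNA depletion with a strand-specific kit, per the labels' protocols, in 8 libraries of 4 groups of 2. Each deposited table lists unnormalised counts for 1 library. STAR, featureCounts, DESeq2 and mm10 stand in the submitters' processing notes, and Cutadapt and TopHat2 on RefSeq mRNAs in the labels' protocols. The strand setting was not given in the sources used here, nor were versions or the handling of reads with several matches. The 21 members with an exon overlapping another annotated gene therefore have uncertain values. In each library 25 symbols had become dates (0.306% to 0.337% of counts) and 2 were blank, and these were left out.

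The members, lists and comparisons were chosen with earlier results of these data known. Counts were fitted over all genes in edgeR 4.0.16 (R 4.3.3) by the quasi-likelihood test, with TMM scaling, filterByExpr by group at a minimum count of 10 (17415 genes, with all 81 members), 1 mean per group and 4 residual degrees of freedom (common biological coefficient of variation 0.171). The average effect had terms for set and knockdown. Benjamini-Hochberg adjustment ran over all genes tested, with a threshold of 0.05, and standard errors follow from the test statistic. The pipeline was tested on simulated data. CPM per kilobase used GENCODE exons of GRCm38, the assembly of mm10, and log2 CPM a prior count of 2. No 2 libraries agreed within sampling noise: chi-square over degrees of freedom lay between 15 and 394. Alternatives were DESeq2 1.42.0, RLE scaling, no low-count filter, only the 4 libraries compared, a replicate block and leaving out each library.

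Named members are up to 8 each way with the smallest unadjusted p in each hairpin comparison, up to 4 each way in the difference of responses and between the controls, the 10 highest per kilobase, the highest of each role class and those next to the count minimum. Other members are named as the rest of a class or count, or were chosen after their values were seen. Some members are counted but not reported here by name.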

Additional observations from a re-analysis of the deposited data

How the results depend on the processing

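With 2 libraries per group, single libraries moved the counts. Leaving out each library in turn gave median log2 fold changes of the members from -0.13 to 0.10 in shAdnp, from -0.31 to -0.072 in shPogz, from -0.31 to 0.0045 for the difference of responses and from -0.076 to 0.048 between the control pairs, so that the sign turned in each of these but shPogz. The counts at an unadjusted p under 0.05 ran from 2 to 7 in shAdnp (3 with all libraries), from 1 to 20 in shPogz (9), from 1 to 14 for the difference (8), from 3 to 20 for the average effect (5) and from 0 to 11 between the control pairs (8). The share of all genes tested at that threshold moved too, from 3.34% to 9.20% in shAdnp, 1.17% to 16.5% in shPogz, 1.79% to 6.90% for the difference, 7.17% to 16.1% for the average effect and 2.72% to 8.05% between the control pairs. A lone library was then assumed to vary like the other groups. The adjusted count of the average effect was 0 to 1. DESeq2 gave 1 adjusted call in shAdnp and 1 for the average effect, against 0 by edgeR, and the cause was not tested.

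Values of single named members that changed sign when a library was left out included those of Kcna6 in shPogz (-0.0071 to 0.29), Kcnh5 in shAdnp (-0.0059 to 0.56), Kcnj4 in shAdnp (-0.033 to 0.12) and Kcnk10 in shPogz (-0.0097 to 0.36). Same-numbered libraries did not deviate together over all genes (correlation -0.0085 in the Adnp set and 0.047 in the Pogz set). A correlation over all genes cannot tell whether such libraries shared handling that changed some genes. With the replicate block, 4 members (4.94%) were at an unadjusted p under 0.05 for the difference of responses, as were 2.77% of all genes tested. In the main fit 8 members (9.88%) were, as were 3.51% of all genes tested, so both shares fell. Between the control pairs the count with the block was 3, given here without the share of all genes. The fit with the block has fewer residual degrees of freedom.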
